A study of Homo sapiens with 14 samples.

Results

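PGR and ESR1 encode the progesterone receptor (PR) and oestrogen receptor alpha, and the data here are the sites of PR and of POLR3A, the RNA polymerase III subunit that holds its catalytic centre, at these 2 genes in T47D cells. T47D is an established breast cancer line that the labels give as positive for both receptors. Cells were treated for 1 h with P4 (progesterone), at a dose not given in the sources used here, or with its ethanol vehicle, and chromatin immunoprecipitation sequencing (ChIP-seq) was run with an antibody to PR or to POLR3A. Each antibody and treatment had 3 replicate libraries and 1 deposited list of called regions, and each treatment also had 1 pooled input. The members are all regions of the 4 lists that reach the RefSeq gene span or the 50 kb on either side, and they number 72 of 230789 regions in all. PGR lies on the minus strand of chromosome 11 (101029624 to 101129813, 100.2 kb, GRCh38), and its window held 27 regions. ESR1 lies on the plus strand of chromosome 6 (151656672 to 152129619, 472.9 kb), and its window held 45. Because no list is given per replicate, no difference between lists could be set against the spread between replicates, and no test between treatments was made.

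PR and oestrogen receptor alpha are nuclear receptors, which respond to their steroid, bind DNA and recruit coactivators or corepressors to enhancers and promoters. In luminal breast cells PGR is a known target of oestrogen receptor alpha, and its product is used with that of ESR1 to class breast tumours. PR and the glucocorticoid and mineralocorticoid receptors recognise a palindrome with the arm TGTNCT, and oestrogen receptors recognise one whose arm ends in GGTCA. RNA polymerase III makes tRNA, 5S ribosomal RNA and other short RNAs, and neither receptor gene is among its known templates.

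The promoters are shown first, because the strongest region at PGR and a weaker one at ESR1 reached annotated start sites. RefSeq (GRCh38.p14) gave 3 promoter windows of PGR and 6 of ESR1, each running from 250 bases before a start site to 50 after it. The lines below give the bases before the start, 5′ to 3′ on the gene's strand, and capitals mark the bases inside the PR region of the P4 list. PGR first start is minus strand, chr11:101129814-101130063. ESR1 starts at 151807196 and 151807682 are plus strand, chr6:151806946-151807195 and chr6:151807432-151807681.
PGR first start: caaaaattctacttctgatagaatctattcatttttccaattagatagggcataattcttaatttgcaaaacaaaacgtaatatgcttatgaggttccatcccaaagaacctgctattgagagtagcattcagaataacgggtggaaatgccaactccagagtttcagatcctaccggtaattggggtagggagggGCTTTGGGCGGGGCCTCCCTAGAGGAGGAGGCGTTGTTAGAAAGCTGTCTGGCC
ESR1 start at 151807196: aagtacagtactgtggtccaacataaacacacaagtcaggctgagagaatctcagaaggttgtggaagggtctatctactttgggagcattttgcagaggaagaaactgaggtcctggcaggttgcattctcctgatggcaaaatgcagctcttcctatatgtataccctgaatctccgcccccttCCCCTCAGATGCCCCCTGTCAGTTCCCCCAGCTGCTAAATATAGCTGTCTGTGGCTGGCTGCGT
ESR1 start at 151807682: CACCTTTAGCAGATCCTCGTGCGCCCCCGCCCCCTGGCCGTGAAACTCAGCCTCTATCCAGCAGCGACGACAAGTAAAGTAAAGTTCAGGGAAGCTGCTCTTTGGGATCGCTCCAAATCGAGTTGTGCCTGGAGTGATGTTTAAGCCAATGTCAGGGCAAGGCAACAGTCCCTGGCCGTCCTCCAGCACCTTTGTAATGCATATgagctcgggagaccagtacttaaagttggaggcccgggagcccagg
The PR region of the P4 list covered 54 bases before the first PGR start, 64 bases before the first of these ESR1 starts and 204 before the second.

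Neither full response element was found in the 9 windows on either strand. The element of PR and its close relatives, searched as GNACA and TGTNC with 3 bases between, occurs in 0.39% of 35116 promoter windows, and the oestrogen element, GGTCA and TGACC with 3 bases between, in 0.057%. The arm TGTNCT, present in 41.4% of windows, was in 0 of the 3 PGR windows and 4 of the 6 ESR1 windows. The short oestrogen arm GGTCA, present in 37.4%, was in 2 PGR windows and 1 ESR1 window. The 2 PGR matches are the same bases in overlapping windows, 166 bases before the start site at 101129077 and 180 before that at 101129063. The stretch around it, minus strand, chr11:101129226-101129255, is shown because it lies inside the strongest PR region of the locus under P4, with the match in capitals as TGACC, which reads GGTCA on the other strand.
PGR oestrogen arm: aagggcaggagcTGACCagcgccgccctcc
The forkhead motif TGTTTAC (3.42% of windows), the AP-1 motif TGANTCA (7.71%), the GATA motif AGATAA (10.3%), the TATA box TATAAA (11.5%) and the B box of RNA polymerase III promoters (0.185%) were in none of the 9.

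PR was listed at both genes under both treatments, and POLR3A at PGR under both and at ESR1 under P4 alone. The PGR window held 7 PR regions in the vehicle list and 13 in the P4 list, and the ESR1 window 15 and 28. More PR regions under P4 than under vehicle is the usual state in these lists, since it held for 87.2% of the 19817 protein-coding genes, and fewer held for 0.762%. With both PR lists cut to the length of the vehicle list by −log10 q, ESR1 had 15 and 23 regions, while PGR had 7 and 3, so the order of the PGR counts depended on list length. POLR3A had 5 regions at PGR under vehicle and 2 under P4, and 0 and 2 at ESR1. Fewer POLR3A regions under P4, as at PGR, was seen at 16.2% of protein-coding genes, and more, as at ESR1, at 51.3%. With POLR3A lists of equal length, ESR1 had 0 regions under both treatments, so that order was lost, and PGR still had 5 and 2.

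A region in such a window is common. Of the protein-coding genes, 74.6% had a PR region under vehicle and 90.5% under P4, and 68.7% and 71.9% had a POLR3A region. The score of a region, −log10 of its q-value, and its fold enrichment over background are the authors' own values, used only to rank regions within a list. A percentile is the share of the list's regions that score the same or lower.

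**Figure D1:**
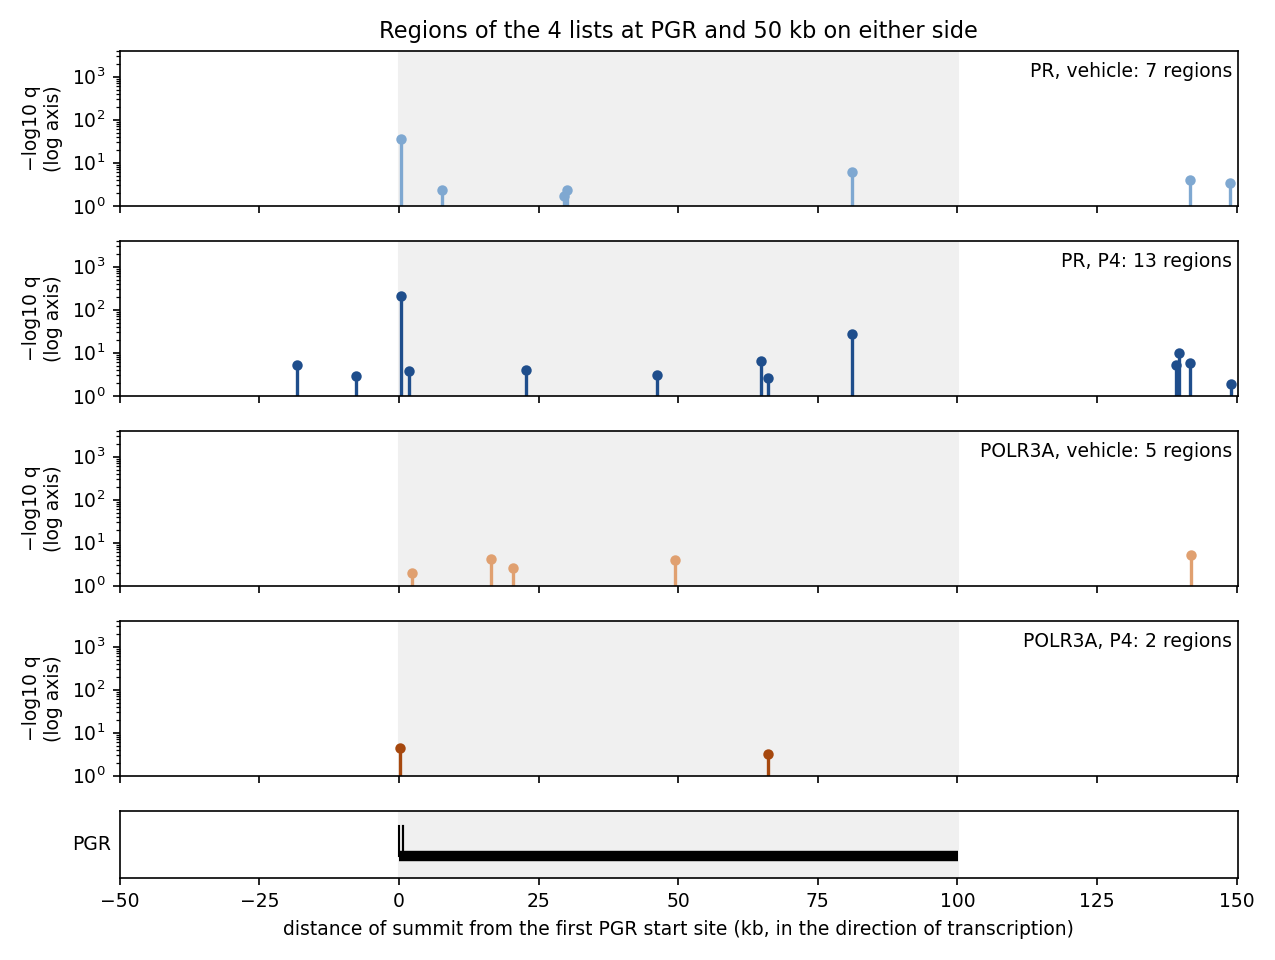
Summits of the regions in the PGR window, by distance from the first PGR start site in kb (x axis) and −log10 q (y axis, log scale), in 1 panel per list. The shaded band and black bar are the gene and thin ticks are annotated start sites. The PR regions near 0 kb are the highest of both PR panels, at 35.8 and 208.6. Heights are scores that serve to rank regions within a panel and are not comparable between panels.

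At PGR the strongest PR region of both lists lay at the promoter, with its summit between the annotated start sites. Under P4 it ran from 101128700 to 101129867, 1168 bp wide, with fold 32.4 and −log10 q 208.6, at percentile 98.5 of its list, and spanned all 3 start sites. Its summit was 427 bp after the first start site, at 101129813, and 309 bp before the start site at 101129077. Under vehicle it ran from 101129228 to 101129755, 528 bp wide, with fold 9.67 and −log10 q 35.8, at percentile 88.8, and its summit was 29 bp from that of the P4 list. These scores come from lists of different length and do not measure a change. The region also overlapped PGR-AS1, the antisense RNA gene that begins at 101129077 within PGR. PR regions overlapped 2 of the 3 PGR promoter windows under vehicle and all 3 under P4, where 6.36% and 19.1% of all promoter windows were overlapped. No other region of the PR lists came within 1 kb of the first start.

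Away from the promoter, only 1 PR region at PGR reached −log10 q of 10, in the P4 list. An intragenic region 81.1 kb after the first start (101048553 to 101048795 under P4) had −log10 q 26.6 and fold 8.17 under P4, at percentile 86.5. In the vehicle list it had 5.95 and fold 4.24, at percentile 51.6, and the summits were 15 bp apart. The other 11 PR regions under P4 scored between 1.92 and 9.61, at percentiles 6.0 to 71.4 of their list. The strongest of them (100990132 to 100990331) lay 39.4 kb beyond the 3′ end of PGR, inside ARHGAP42. In all, 4 of the 13 P4 regions and 2 of the 7 vehicle regions lay in that flank, in ARHGAP42, among them the strongest vehicle region of the locus after the promoter and 81.1 kb ones (100988053 to 100988250, −log10 q 3.87, with 5.70 under P4). The 5′ flank held 2 P4 regions, 7.66 and 18.3 kb before the first start and both in PGR-AS1, and no vehicle region.

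A −log10 q of at least 10 was reached by 2 of the 13 PR regions at PGR under P4, 15.4%, against 27.4% of the whole list. Under vehicle it was 1 of 7, 14.3%, against 32.2%. The median PGR region lay at percentile 51.9 under P4 and 24.8 under vehicle. Above the middle of the list were 7 of the 13 under P4 and 2 of the 7 under vehicle.

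**Figure D2:**
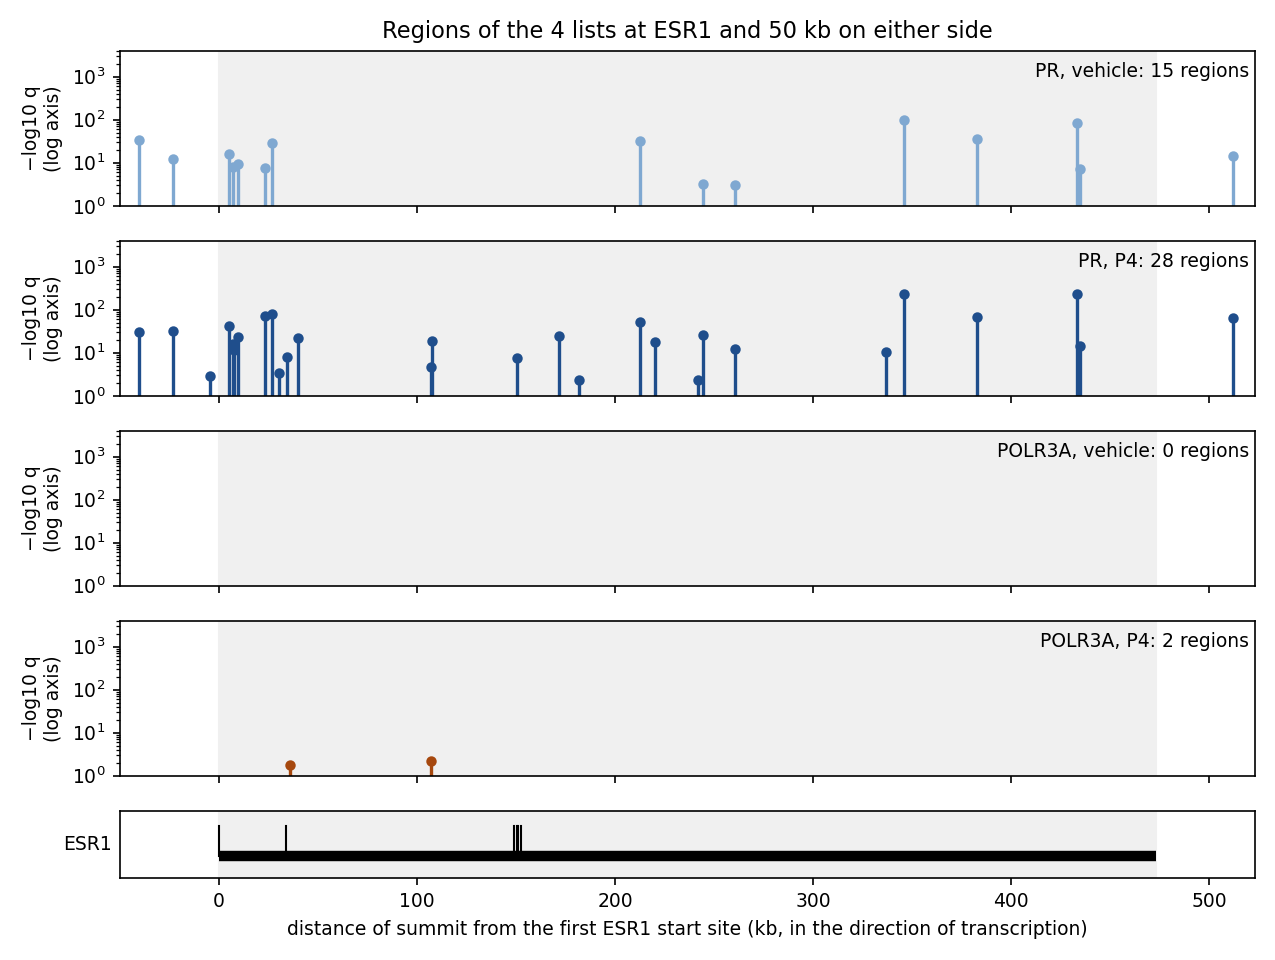
Summits of the regions in the ESR1 window, drawn as for PGR, with distance from the first ESR1 start site in kb on the x axis and −log10 q on a log y axis. The highest PR summits of both PR panels lie 345.9 and 433.3 kb into the gene, and the start sites near 150.6 kb carry 1 PR region, in the P4 panel, with −log10 q 7.39.

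At ESR1 the strongest PR regions lay deep in the gene and not at a promoter. The region from 152002005 to 152002738 under P4 had fold 38.6 and −log10 q 229.8, at percentile 98.8, with its summit 345.9 kb after the first start. In the vehicle list it had fold 22.3 and −log10 q 98.4, at percentile 96.2, and was again the strongest of the locus. The second, from 152089768 to 152090271 under P4, had its summit 433.3 kb after the first start, with −log10 q 228.1 and fold 38.4 under P4 and 82.7 and 19.8 under vehicle. Their summits in both lists were 12 and 6 bp apart. Next under P4 was a region 26.6 kb into the gene (151683030 to 151683521), with 77.7 under P4 and 29.3 under vehicle. Next under vehicle was one 382.9 kb into the gene (152039312 to 152039710), with 36.1 there and 68.4 under P4. The 2 leading sites were thus the same in both PR lists.

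The first 50 kb of the ESR1 gene held a group of 9 PR regions under P4 and 5 under vehicle. Their summits under P4 ran from 5.06 to 40.0 kb after the first start, with −log10 q from 3.36 to 77.7. Later annotated starts lie 33855 bp and 149033 to 152435 bp after the first, so the group lies upstream of the farthest ones. The 2 vehicle regions of the 5′ flank, 40.4 and 22.9 kb before the first start, were also in the P4 list. The farther one, inside CCDC170, the coding gene next to ESR1, scored 33.8 under vehicle and 30.9 under P4. The 3′ flank held 1 region in each list, in SYNE1, a nuclear envelope gene that overlaps the end of ESR1, 38.9 kb beyond the 3′ end, with 14.0 under vehicle and 64.5 under P4.

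At the annotated ESR1 starts PR was listed under P4 alone. No PR region overlapped any of the 6 promoter windows under vehicle, where 6.36% of all promoter windows were overlapped. Under P4 a single region, from 151807132 to 151807635 with fold 4.61 and −log10 q 7.39, at percentile 65.7, overlapped 2 of the 6, where 19.1% of all windows were overlapped. These 2 windows share that region. Its summit was 85 bp after the start at 151807196 and 401 bp before that at 151807682. The start at 151690527 had a PR summit 410 bp away under P4, in a region of −log10 q 8.14 outside its window. At the first start, the nearest PR summits were 4.24 kb away under P4 and 5.05 kb under vehicle, so none came within 1 kb of it.

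In contrast to PGR, most ESR1 regions ranked high. A −log10 q of at least 10 was reached by 21 of 28 PR regions under P4, 75.0%, against 27.4% of the whole list. Under vehicle it was 9 of 15, 60.0%, against 32.2%. The median lay at percentile 83.5 under P4 and 75.6 under vehicle. No test between the loci was made, because regions of a locus share chromatin and libraries and are not replicates. The fold values also differed in kind between the loci, as described in the last section. In the PR P4 list, 28 of 28 folds at ESR1 and 0 of 13 at PGR were whole multiples of 0.2097. The part that this plays in the contrast of ranks was not tested.

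PR regions of the vehicle list recurred under P4 at ESR1 and less completely at PGR. All 15 vehicle regions at ESR1 overlapped a P4 region, and 4 of 7 did at PGR, where 75.7% of the whole vehicle list did. The 3 PGR vehicle regions without a P4 counterpart lay 7.77 to 30.2 kb into the gene and had −log10 q of 2.28, 1.73 and 2.29. In the other direction, 15 of the 28 ESR1 regions under P4, 53.6% (95% Wilson interval 35.8 to 70.5), and 4 of the 13 PGR regions, 30.8% (12.7 to 57.6), overlapped a vehicle region, against 25.8% of the whole P4 list. The intervals cover counting error over regions only. Of the P4 regions scoring 10 or more, 15 of 21 at ESR1, 71.4%, and 2 of 2 at PGR had a vehicle counterpart, against 64.8% of such regions in the whole list, a share inside the 95% Wilson interval of both.

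Regions found under P4 alone scored up to 24.6 at ESR1, where the shared ones ran from 12.2 to 229.8. The strongest of these 13 was an intragenic region 171.9 kb after the first start (151828431 to 151828786), with fold 8.60. Next came a region 40.0 kb after the start with 22.5, 1 at 107.8 kb with 18.6 and 1 at 220.2 kb with 17.6. At PGR the strongest of 9 was the ARHGAP42 region with 9.61.

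Where both lists had a region, the summits usually coincided. At ESR1 they were 2 to 189 bp apart, with a median of 12 bp, and 13 of 15 pairs were within 50 bp, against 65.1% of 29484 pairs over all chromosomes. At PGR 2 of 4 pairs were, and the distances ran from 15 to 184 bp. The P4 region was the wider at 12 of 15 ESR1 pairs and 4 of 4 PGR pairs, against 78.7% of all pairs. Over the 15 ESR1 pairs the order of −log10 q was similar in both lists (Spearman correlation 0.75, a description across sites of 1 locus that share the antibody and the cells).

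**Figure D3:**
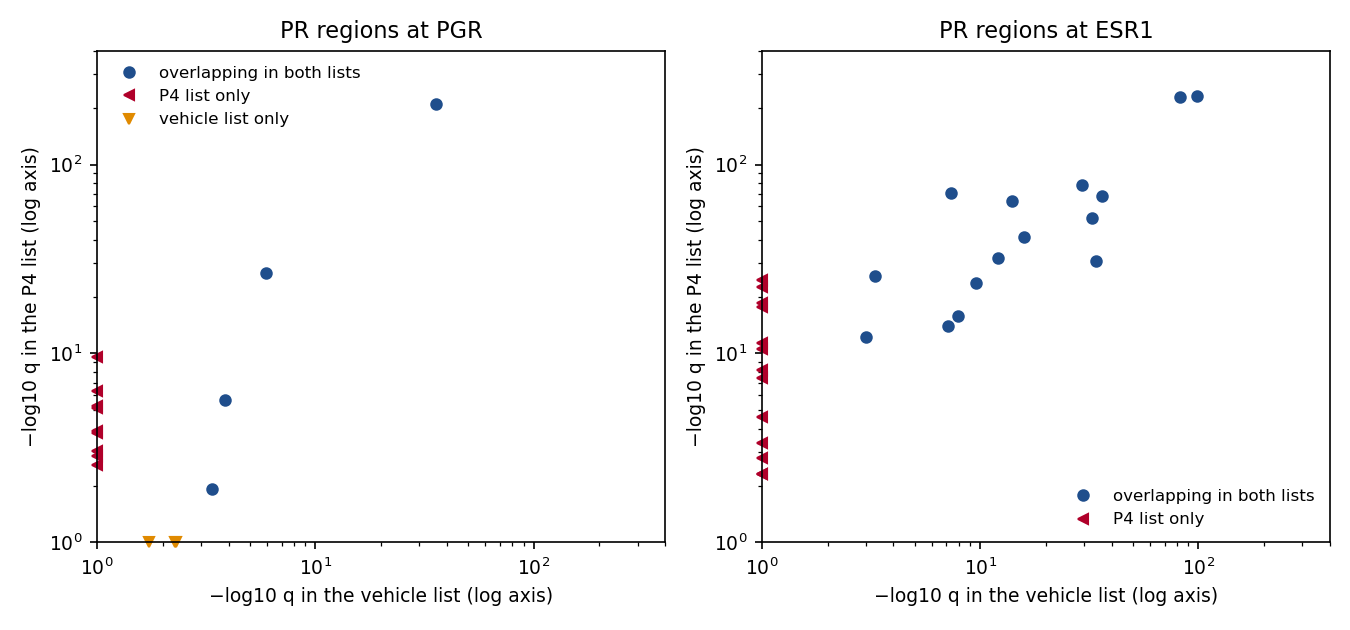
−log10 q of PR regions in the vehicle list (x axis, log scale) and in the P4 list (y axis, log scale), for PGR (left) and ESR1 (right). Circles are regions overlapping in both lists, and triangles on an axis are regions of a single list, drawn at the edge because they have no value in the other. ESR1 has 15 circles and 13 P4 triangles, and PGR has 4 circles, 9 P4 triangles and 3 vehicle triangles, of which 2 have nearly the same score.

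No POLR3A region at the receptor genes was listed under both treatments. At PGR the 5 vehicle regions had −log10 q from 1.97 to 5.29, with a median percentile of 58.9, and the 2 P4 regions had 3.22 and 4.43, at percentiles 50.2 and 74.0. The vehicle regions after the strongest were one 16.4 kb into the gene (101113272 to 101113463), with 4.29, and one 49.5 kb into it (101079856 to 101080347), with 4.04. At ESR1 there was none under vehicle, and the 2 P4 regions had 1.80 and 2.21, at percentiles 7.7 and 18.8 of their list. None of the 9 reached −log10 q of 10, a score that 8.78% of POLR3A regions had under vehicle and 5.4% under P4. No POLR3A region recurred between treatments (0 of 4 from P4 and 0 of 5 from vehicle), against 25.8% and 42.0% of the whole lists.

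Of the POLR3A regions under P4, 3 of 4 overlapped a PR region, where 50.5% of the whole POLR3A list did. The stronger PGR one, from 101129467 to 101129720, fell inside the promoter PR region, with its summit 238 bp after the first start. It lay between the promoter windows, so POLR3A overlapped 0 of the 3 PGR and 0 of the 6 ESR1 windows in either treatment, against 13.0% of all windows under vehicle and 12.3% under P4. The other PGR one, 66.0 kb into the gene (101063670 to 101063950), overlapped a PR region of −log10 q 2.56. At ESR1, 1 of the 2 (151763773 to 151764000, 107.3 kb into the gene) overlapped a PR region of 18.6, and the other (151692449 to 151692676) lay 1403 bp from the nearest. With a reciprocal overlap of at least 50%, 1 of the 2 PGR regions and 0 of the 2 ESR1 regions overlapped PR.

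Under vehicle none of the 5 POLR3A regions at PGR overlapped a PR region of the same treatment, against 32.3% of the whole list. The strongest of the 5 (100987814 to 100988030, −log10 q 5.29), in ARHGAP42, lay 23 bp from a vehicle PR region. It did overlap a PR region of the P4 list, which made this site and the promoter the only sites at either gene with regions in 3 of the 4 lists. No site was in all 4. Seen from PR, 2 of the 13 PGR regions and 1 of the 28 ESR1 regions overlapped POLR3A under P4, against 20.9%, and 0 of 7 and 0 of 15 did under vehicle, against 24.2%. The gene table lists no tRNA gene in either window. It lists RNU6-813P, a pseudogene of the U6 RNA that RNA polymerase III transcribes, in the 5′ flank of ESR1, and no region of the 4 lists overlapped it.

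Merged over the lists, the regions formed 29 sites at ESR1 and 20 at PGR. At ESR1, 15 sites had PR under both treatments, 12 had PR under P4 alone, 1 had PR and POLR3A under P4 and 1 had POLR3A under P4 alone. At PGR, 15 of the 20 sites were in a single list, of which 8 were PR under P4, 3 PR under vehicle and 4 POLR3A under vehicle.

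Per length, both genes had more PR regions under vehicle than the median protein-coding gene, which had 1.51 per 100 kb. Under P4, PGR lay above the median of 5.28 and ESR1 below it. PGR had 3.50 PR regions per 100 kb of window under vehicle and 6.49 under P4, more than 74.2% and 56.6% of protein-coding genes. ESR1 had 2.62 and 4.89, more than 65.6% and 47.9%. The chromosomes differed, since the median protein-coding gene had 7.55 PR regions per 100 kb under P4 on chromosome 11 and 3.42 on chromosome 6. Against genes of its own chromosome PGR exceeded 47% under P4 and ESR1 58.7%, so their order turned. Under vehicle these shares were 60.8% for PGR and 73.6% for ESR1. For POLR3A, PGR had 2.50 under vehicle and 0.999 under P4, more than 68.2% and 44.0% of genes. ESR1 had 0 under vehicle and 0.349 under P4, the latter more than 29.6% of genes. No POLR3A region under vehicle was a state shared by 31.3% of protein-coding genes.

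The genes were also ranked by the strongest region of their window, a measure that favours long windows with many regions, such as that of ESR1. Genes without a region in the list counted as outscored. A PR region was present at 74.6% of genes under vehicle and 90.5% under P4, and a POLR3A region at 68.7% and 71.9%. With such genes counted, the leading PR region at ESR1 outscored 89.5% of protein-coding genes in each list. That at PGR outscored 76.7% under vehicle and 87.8% under P4. The leading POLR3A region at PGR outscored 66.9% under vehicle and 57.8% under P4. That at ESR1 outscored 30.3% under P4, nearly all of them among the 28.1% of genes without a region.

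**Figure D4:**
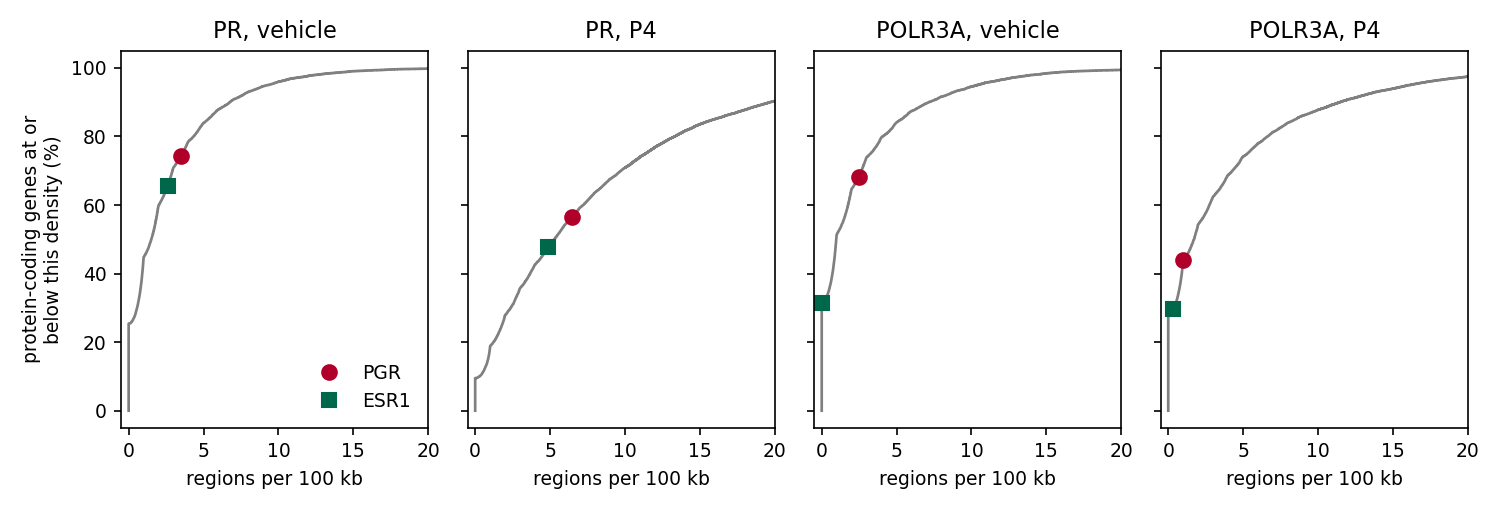
Share of 19817 protein-coding genes at or below a density (y axis, percent) against regions per 100 kb of gene and flanks (x axis, cut at 20), in 1 panel per list, with PGR as a circle and ESR1 as a square. PGR lies above ESR1 in every panel, at 6.49 against 4.89 in the PR P4 panel.

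Of the other steroid receptor genes, 3 are described here, and they had fewer PR regions per length in most cases. ESR2, the gene of oestrogen receptor beta, had 3 under vehicle and 12 under P4, or 1.42 and 5.66 per 100 kb. NR3C1, of the glucocorticoid receptor, had 1 and 9, and NR3C2, of the mineralocorticoid receptor, 2 and 4. Under P4, PGR, ESR2 and ESR1 were thus the densest of these 5, in that order, and the spread between replicates was not available to separate neighbours. NR3C2 had few regions, and its leading one was strong, at −log10 q 134.5 under vehicle and 178.8 under P4. POLR3A was listed at ESR2 (7 under vehicle and 6 under P4) and at NR3C1 (3 under P4), and not at NR3C2.

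**Figure D5:**
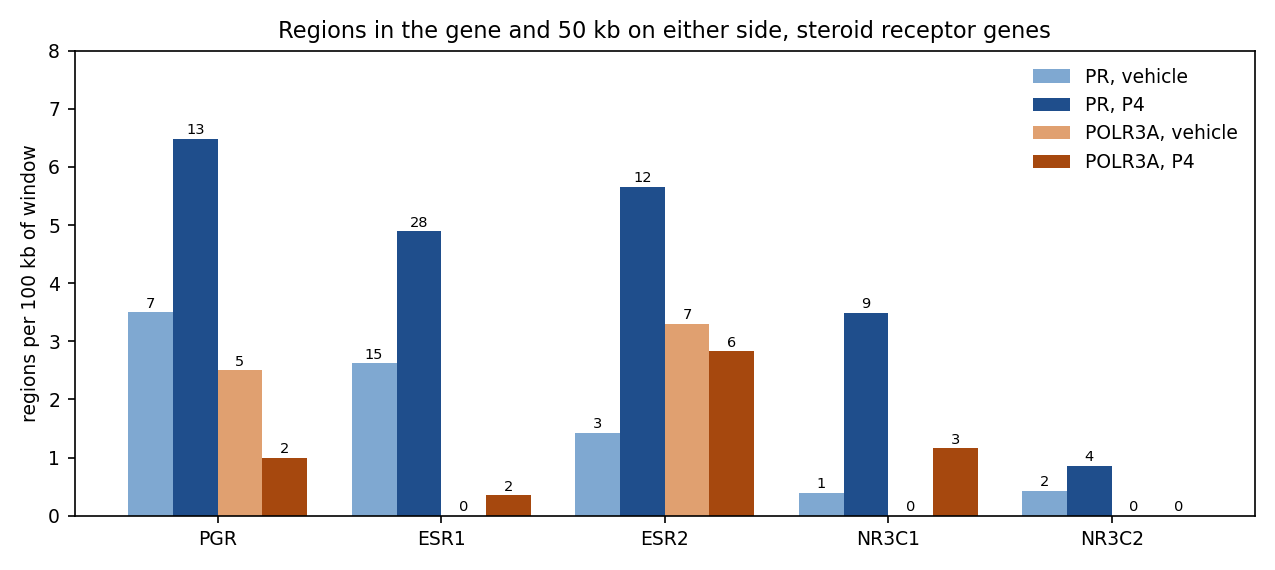
Regions per 100 kb of window (y axis, from 0) for 5 steroid receptor genes in the 4 lists, with the number of regions above each bar. PGR has the tallest PR bars under both treatments, and ESR1 shows 28 PR regions under P4 over a wider window.

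Genes that work with the receptors were also examined. PR was listed near 5 of 6 genes for membrane progesterone-binding proteins under each treatment, with PGRMC1 at 0 in all lists. It was near all 6 partner transcription factor genes, such as FOXA1 and GATA3, whose products open chromatin for the receptors, and near all 8 coregulator genes and all 6 oestrogen target genes. Of all protein-coding genes, 74.6% had a PR region under vehicle and 90.5% under P4, so such counts are common. The median density under P4 was 7.74 PR regions per 100 kb for the membrane proteins, 11.8 for the partner factors, 3.97 for the coregulators and 18 for the oestrogen targets, beside 5.28 over all protein-coding genes. Under P4 both receptor genes were below the medians of the partner factors and of the oestrogen targets. POLR3A was listed near all 6 partner factor genes and all 6 oestrogen targets under each treatment, near 4 and then 5 of the membrane protein genes, and near 7 and then 5 of the coregulator genes. The shares over all protein-coding genes were 68.7% under vehicle and 71.9% under P4.

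By likeness over the 4 densities, taken as the largest difference in log2(regions per 100 kb + 1), the genes nearest to PGR were SELENOO (0.11), UTP11 (0.12) and PANX2 (0.15). Those nearest to ESR1 were LONP2 (0.11), FNIP2 (0.13) and LEF1 (0.15). All were without POLR3A under vehicle, which follows from the measure, since ESR1 had 0 in that list. SELENOO and PANX2 are both on chromosome 22.

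The limit of the windows cut through no dense group. The outermost PR region of PGR under P4 lay 1.06 kb inside the edge on the 3′ side, with −log10 q 1.92, and the next outside was 14.4 kb beyond it, with 2.41. On the 3′ side of ESR1 the last region under P4 lay 10.9 kb inside, with 64.5, and the next was 39.1 kb outside, with 71.0.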

How the data were processed

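There were 14 libraries, with 3 replicates for every pair of antibody and treatment plus an input for each treatment, and 4 region lists were used. The submitters' processing notes name cutadapt, Bowtie2, MACS2 and build hg38, without versions. Which control was used and how replicates were combined is not given in the sources used here. The authors deposited for each region a fold enrichment (a ratio), a −log10 q value, and an integer score, which was not used. The highest q-value was 0.0497. No read counts were used, so depth is unknown, and a deeper library would lengthen a list.

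Regions on chromosomes 1 to 22 and X were joined to RefSeq genes of GRCh38.p14, the same build, by gene span with 50 kb on either side. Genes were kept on each chromosome until start positions first fell back (58415 of 59094, 19817 protein-coding). Overlap meant at least 1 bp. Exon positions were not used here. Analysis used Python 3.11.15 with pandas 2.3.3, and bedtools 2.31.1 gave the same overlap counts for all 12 pairs of lists. On simulated data, window counts were right in 200 of 200 windows.

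The text names the 3 highest regions per gene and list, those within 1 kb of the gene start, genes in the windows, 3 other steroid receptor genes and the 3 nearest genes by likeness. Others, such as the regions of single lists, the promoter region of ESR1 and PGRMC1, were chosen after their values were seen. The members and lists were chosen with earlier results of these data known. The alternatives tried were a minimum −log10 q (5 or 10), lists of equal length, the gene span alone, 50% reciprocal overlap and rank by fold. One gene of the lists is not reported here.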

Additional observations from a re-analysis of the deposited data

How the results depend on the processing

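Of 72 alternative values for 30 results, 43 stayed within 1.5 times the count, or within the 95% counting interval of the share or percentile, and 29 moved. At −log10 q of at least 5, PGR kept 2 vehicle and 7 P4 regions of PR, 1 and 0 of POLR3A, and ESR1 kept 0 POLR3A regions under P4. At 10 or more, PGR kept 1 and 2 PR regions and 0 POLR3A regions under either treatment, and ESR1 kept 9 PR regions under vehicle and 0 POLR3A regions under P4. With lists of equal length, PGR had 3 PR regions under P4, below the 7 under vehicle, with 66.7% of the 3 overlapping a vehicle region, and ESR1 had 0 POLR3A regions under P4. ESR1 kept more PR regions under P4 than under vehicle in each of these settings.

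In the gene span alone PGR had 7 PR regions under P4. PGR then exceeded 83.1% and 62.7% of protein-coding genes in PR density under vehicle and P4 and 78.7% and 65.1% in POLR3A density. ESR1 exceeded 74.7% and 56.1% for PR. For POLR3A under P4 ESR1 exceeded 57.4%, where the window with flanks gave 29.6%, with the same 2 regions. With 50% reciprocal overlap, 0 of the 2 ESR1 POLR3A regions under P4 overlapped PR. Ranked by fold, the leading region lay at percentile 98.6 (PR, P4), 85.7 (POLR3A, vehicle) and 82.2 (POLR3A, P4) at PGR and at 97.0 (PR, vehicle), 99.2 (PR, P4) and 41.6 (POLR3A, P4) at ESR1. Shares with no region left at a threshold have no value. The cause of these shifts was not tested beyond the shorter lists that the settings make. Leaving out a replicate was not run, since no list is given per replicate. No paired analysis was possible because no values are given per replicate.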

Other observations

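The fold values of the PR regions differed in kind between the loci. MACS2 gives fold as a ratio of reads at the summit to an estimated local background, so regions with the same background estimate have folds that are whole multiples of a common step. In the PR P4 list, 28 of 28 folds at ESR1 were whole multiples of 0.2097, within 0.01 of a step, and 0 of 13 were at PGR. In the PR vehicle list, 13 of 15 at ESR1 were multiples of 0.2299, and 0 of 7 at PGR. Over the P4 list the share was 26.9%, with 38.9% on chromosome 6 and 6.14% on chromosome 11. Over the vehicle list it was 21.6%, with 29.2% and 6.38%. The part that this plays in the counts and scores at PGR and ESR1 was not tested.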
